A study of Mus musculus with 4 samples.

Results

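The expression of 56 genes of sterol and fatty acid metabolism was examined in the ventral midbrain of mice that lack REV-ERBα, a clock repressor of the nuclear receptor family whose gene is Nr1d1. The genes were taken from a list of symbols: 16 enzymes of sterol synthesis, 6 genes of sterol sensing, and 34 genes that make, desaturate, elongate, activate, store, take up or oxidise fatty acids or regulate these steps. Each gene was read from the brightest, on average over the 4 arrays, of the probe sets annotated to that gene alone. Such a probe set existed for 54 of the 56 genes, among 19938 genes in all. Acsl1 and Acsl3 had none. Lpl and Cd36 lay below the filter on dim probe sets, which left 52 genes among 13587 tested.

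RNA came from male mice of 10 to 15 weeks on a C57BL/6J background, 2 arrays from wild-type mice (WT) and 2 from Rev-erba knock-out mice (RKO). Both groups had been entrained to 12 h of light a day for more than 10 days and then kept in constant darkness for 2 days. The hour of collection, how the allele was made and how many mice contributed to 1 array are not given in the sources used here. Labels call the replicates biological, and each value below is a normalized intensity, on a linear scale, of 1 array.

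Cholesterol in the brain is made locally, because lipoprotein cholesterol does not cross the blood-brain barrier, and the oligodendrocytes that build myelin and the astrocytes that supply neurons are its main makers. Synthesis runs from acetyl-CoA through mevalonate and squalene to lanosterol and cholesterol. SREBP2, encoded by Srebf2, switches these enzymes on when membrane sterol is low, while SREBP1, encoded by Srebf1, drives fatty acid synthesis. REV-ERBα is known in liver as a regulator of lipid genes and of SREBP activity.

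The targeted gene and the markers of the tissue were examined first. Nr1d1 had intensities of 2897 and 3099 in WT against 1259 and 1229.7 in RKO, with no overlap (log2 difference of RKO minus WT -1.27, standard error, SE, 0.0589, adjusted p = 2.44e-06 in limma). The deleted part of Nr1d1 is not given either, so whether this probe set lies within it is unknown. All 9 markers of ventral midbrain dopamine neurons lay above the filter. Th, the enzyme that starts dopamine synthesis, had 2168 and 2248 in WT against 3620.0 and 3664 in RKO. In limma 4 of the 9 markers were called higher (median 0.27), beside 0.640% of all tested genes. The tested genes had a median of 539.8 in RKO replicate 1, which stood apart from the other 3 arrays at 558.6 to 558.7.

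Across the lipid genes 1 of 52 tested, Elovl2, was lower in RKO and 0 were higher at a Benjamini-Hochberg adjusted p under 0.05 in limma. That is 1.92% of the 52. Of all tested genes 1.60% were called (0.964% as lower and 0.640% as higher), so the share of lipid genes that passed was close to the background at this setting. It stood above it in other fits, at 10.2% of lipid genes against 3.13% of all genes with the filter at the 60th percentile, 11.5% against 3.67% with an intensity trend in eBayes and 7.69% against 3.35% with median centring of each array. At an unadjusted p under 0.05 there were 8 of the 52, all lower, beside 12.8% of all tested genes in either direction, 6.90% lower and 5.90% higher. The 8 were Elovl2, Elovl7, Scd1, Fads1, Fads2, Tm7sf2, Hmgcs1 and Idi1. A difference below 0 was found for 39 of the 52 (75%), beside 56.8% of all tested genes. The median of the 52 was -0.04, beside -0.01 over all tested genes. With the filter at the 60th percentile, which 49 of the 52 passed, the median over all genes then tested was -0.02. The groups did not overlap in 27 of the 52, with 22 lower and 5 higher in RKO, beside 41.8%, 24.6% and 17.2% of all tested genes.

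**Figure D1:**
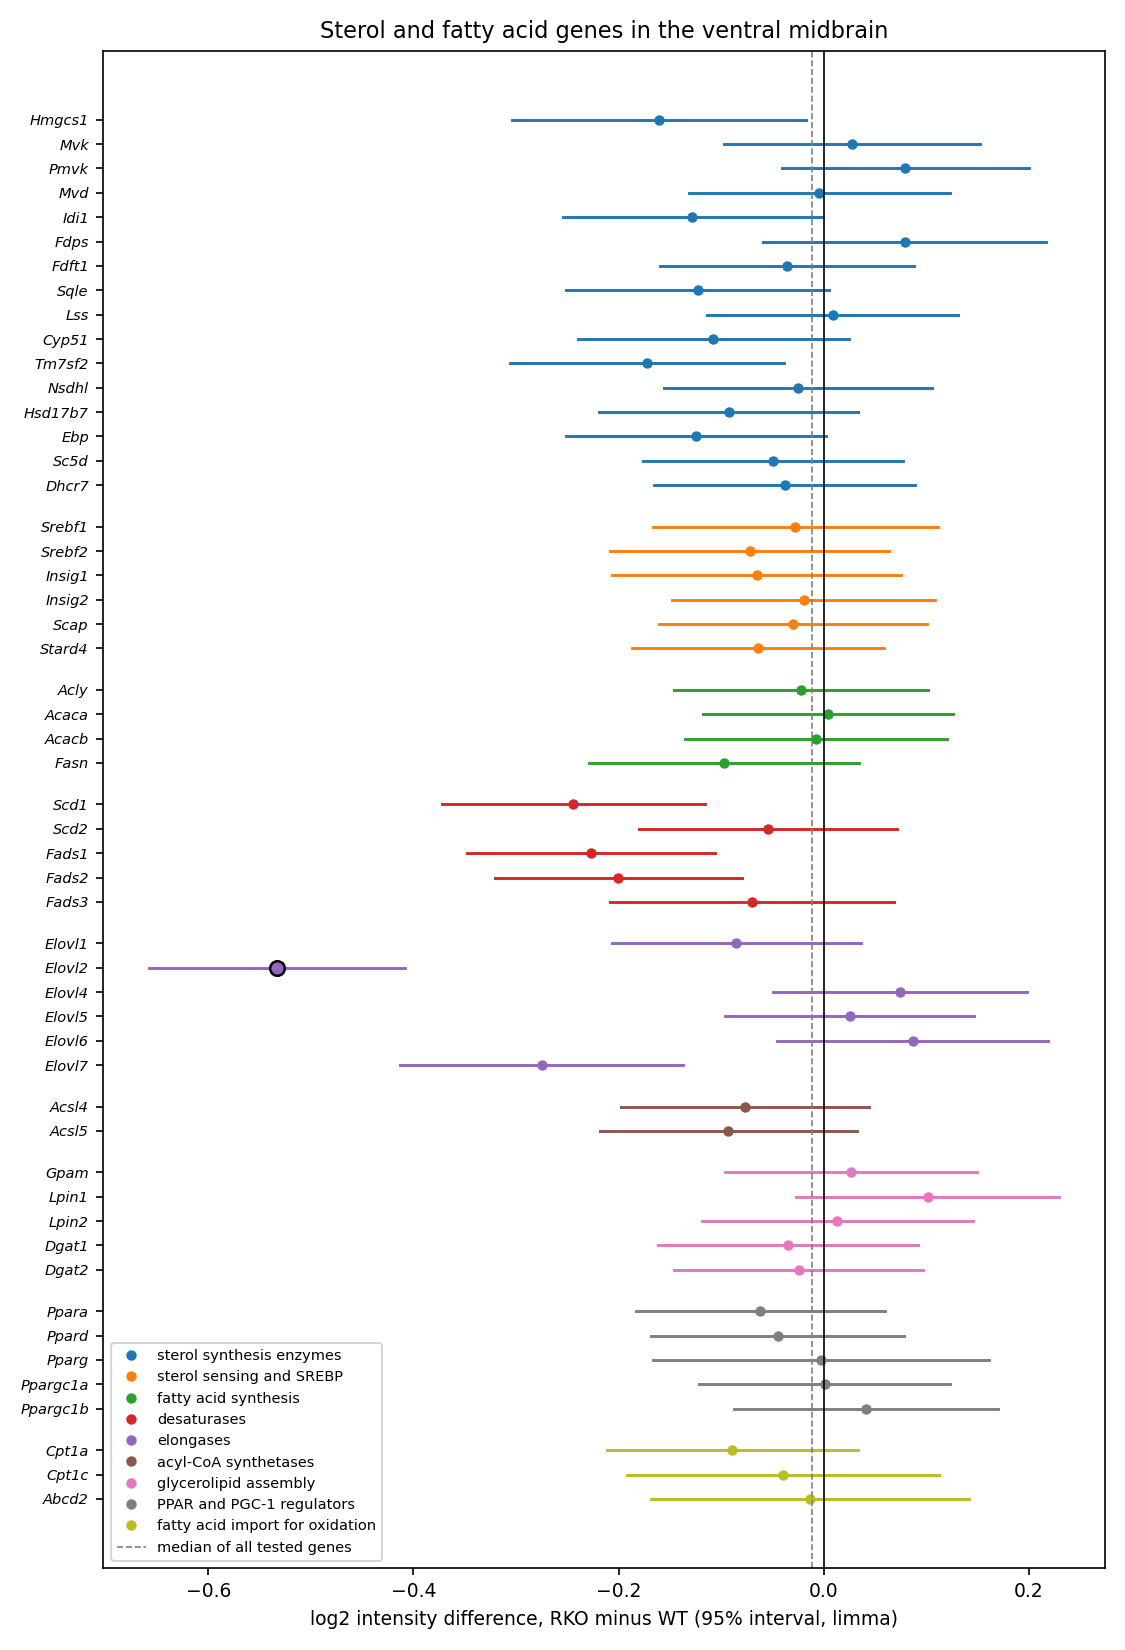
Log2 intensity difference (RKO minus WT, n = 2 arrays each) of the 52 tested genes by role, with limma's 95% interval as lines; the dashed line is the median of all tested genes (-0.01). Elovl2, ringed in black, lies at -0.53 and is the 1 gene called; the intervals of Elovl7, Scd1, Fads1, Fads2, Tm7sf2, Hmgcs1 and Idi1 also lie below 0 without passing after adjustment.

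The promoters of 3 of the 5 genes with the lowest p, and of the first enzyme of the sterol pathway in the list, are shown to set the called elongase beside a gene with a match to the sterol element. Each is the 250 bases before a RefSeq start site of GRCm38.p6: Elovl2 at chr13:41220404-41220653 on the minus strand (the upstream one of 2 start sites), Elovl7 at chr13:108214154-108214403 on the plus strand, Fads2 at chr19:10101504-10101753 on the minus strand and Hmgcs1 at chr13:119690101-119690350 on the plus strand. Capitals mark every match, on either strand, to the sterol regulatory element TCACNCCAC, the E-box CACGTG, the CCAAT box, the GC box GGGCGG, the nuclear receptor half-site AGGTCA or the ROR element, the site bound by REV-ERBα, which contains the half-site in 1 of its forms.
Elovl2: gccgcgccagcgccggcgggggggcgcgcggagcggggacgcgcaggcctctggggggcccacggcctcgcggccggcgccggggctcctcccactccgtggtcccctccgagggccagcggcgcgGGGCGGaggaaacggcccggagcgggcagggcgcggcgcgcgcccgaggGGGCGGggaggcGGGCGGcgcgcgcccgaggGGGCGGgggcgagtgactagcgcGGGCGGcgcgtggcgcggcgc
Elovl7: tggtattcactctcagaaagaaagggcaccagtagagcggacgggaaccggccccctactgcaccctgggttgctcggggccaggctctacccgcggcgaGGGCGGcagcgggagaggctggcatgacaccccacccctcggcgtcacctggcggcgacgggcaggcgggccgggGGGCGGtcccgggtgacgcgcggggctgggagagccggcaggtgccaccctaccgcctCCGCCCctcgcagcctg
Fads2: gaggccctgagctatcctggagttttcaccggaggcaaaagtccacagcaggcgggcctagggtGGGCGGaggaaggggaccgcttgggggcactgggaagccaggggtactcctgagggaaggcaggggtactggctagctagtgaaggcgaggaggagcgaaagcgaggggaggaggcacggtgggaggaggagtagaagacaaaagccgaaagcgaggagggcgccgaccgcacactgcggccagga
Hmgcs1: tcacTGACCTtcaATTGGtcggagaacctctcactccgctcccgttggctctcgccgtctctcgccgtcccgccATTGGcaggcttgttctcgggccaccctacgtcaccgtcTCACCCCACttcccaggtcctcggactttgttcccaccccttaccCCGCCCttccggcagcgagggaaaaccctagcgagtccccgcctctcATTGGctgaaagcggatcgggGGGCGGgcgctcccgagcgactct

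In these windows Elovl2 held 5 GC boxes, which began 124, 75, 63, 44 and 21 bases before the start site, and no other motif searched, in a sequence of 87.2% G and C against a median of 52.4% over all promoters. The window of the other Elovl2 start site held 0 matches to any motif searched. Elovl7 held 3 GC boxes and Fads2 held 1. Hmgcs1 held the sterol element 137 bases before its start, 3 CCAAT boxes (read as ATTGG on the printed strand), 2 GC boxes and 1 half-site (read as TGACCT). RefSeq promoters were matched for 44 of the 56 genes, 60 windows in all. A CCAAT box stood in 13 of the 16 windows of sterol synthesis enzymes (81.2%), in 16 of 34 windows of fatty acid and regulator genes (47.1%) and in 33.8% of the 32851 windows of all genes. The GC box stood in 81.2%, 61.8% and 32.7% of the same sets. The sterol element was found in 1 of the 16 sterol enzyme windows, that of Hmgcs1, in 1 of the 34, that of Acsl1, and in 1.05% of all. The E-box was found in 3 of the 16 (18.8%), 2 of the 34 (5.88%) and 6.02% of all. The half-site was found in 4 of the 16 (25%), 10 of the 34 (29.4%) and 14% of all. Its 4 sterol enzyme windows belonged to 2 of the 13 sterol enzyme genes with a window. The ROR element was found in 0 of the 60 and 0.332% of all. These matches describe the letters of the windows only.

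Elovl2, which lengthens polyunsaturated chains late in the route to docosahexaenoic acid and is expressed in astrocytes, fell 1.45-fold. Intensities of Elovl2 stood at 493 and 469.9 in WT against 332 and 334 in RKO. Both RKO arrays lay below both WT arrays, which differed from each other by 0.07 on the log2 scale, while the RKO arrays differed by 0.0088. The log2 difference was -0.53 (SE 0.0565, 95% interval -0.66 to -0.41, adjusted p = 7.74e-04 in limma), and the call held under each of the 12 alternatives run. The adjusted p in limma was highest, 0.0466, with no filter. It was lowest, 1.67e-13, with a crossed replicate block, which was chosen after seeing the data and gave every gene the same SE.

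The enzymes that act with Elovl2 in this route did not pass. Fads2, the desaturase that starts and ends the route, had intensities of 3899 and 3847 in WT against 3372 and 3369 in RKO (log2 difference -0.20, SE 0.0547, adjusted p = 0.119). Fads1, the desaturase that forms arachidonic acid, had 5048 and 4947 in WT against 4276 and 4264 in RKO (-0.23, SE 0.0549, adjusted p = 0.0769). In both genes every RKO array lay below every WT array and the RKO arrays were nearly alike. Elovl5, which elongates the products of Fads2, had 2528 and 2492 in WT against 2539.7 and 2569 in RKO (0.03, 95% interval -0.10 to 0.15), so that its interval lay above that of Elovl2. Fads3, a desaturase of the same family, overlapped between the groups (-0.07, adjusted p = 0.741).

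Among enzymes of saturated and monounsaturated chains, Scd1, which turns stearate into oleate, had intensities of 6248 and 5853 in WT against 5105 and 5108 in RKO. The RKO arrays were lower without overlap, yet the difference of -0.24 did not pass (SE 0.0582, adjusted p = 0.0735). Scd2, the stearoyl-CoA desaturase that predominates in brain, had 10469 and 9908 in WT against 9819.7 and 9797 in RKO, a difference of -0.05 with a 95% interval of -0.18 to 0.07. Elovl7, an elongase of saturated chains, had 1108 and 1156 in WT against 895 and 978 in RKO (-0.27, SE 0.0625, adjusted p = 0.0606). Here the gap between the RKO arrays (0.13 on the log2 scale) was wider than that between the WT arrays (0.06).

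The other elongases did not pass and went both ways. In Elovl1 both RKO arrays lay below both WT arrays. Elovl1, of very long saturated chains, had a difference of -0.09, while Elovl4, which makes the longest chains of retina and brain, stood at 0.07 and Elovl6, which takes palmitate to stearate, at 0.09. Intensities of Elovl4 were 2777 and 2893 in WT against 2976 and 2992 in RKO, so the RKO arrays were the higher ones, as in Elovl5 and Elovl6. Of the 6 elongases 1 fell and 5 did not pass, with 3 below 0 and 3 above. All 5 desaturases lay below 0, beside 56.8% of all tested genes, and 0 passed in limma. Of the 5, 3 were lower at an unadjusted p under 0.05, beside 6.90% of all tested genes. The desaturase median was -0.20, that of the elongases -0.03.

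The calls in these families depended on the settings. Elovl7, Scd1 and Fads1 passed with the filter at the 60th percentile, with median centring and with an intensity trend in eBayes, Fads2 with the first and the last of these, and Elovl7 also with a pseudocount of 16 and with the replicate block (adjusted p = 0.0383). None of these 4 passed in limma with no filter or when any 1 array was left out.

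**Figure D2:**
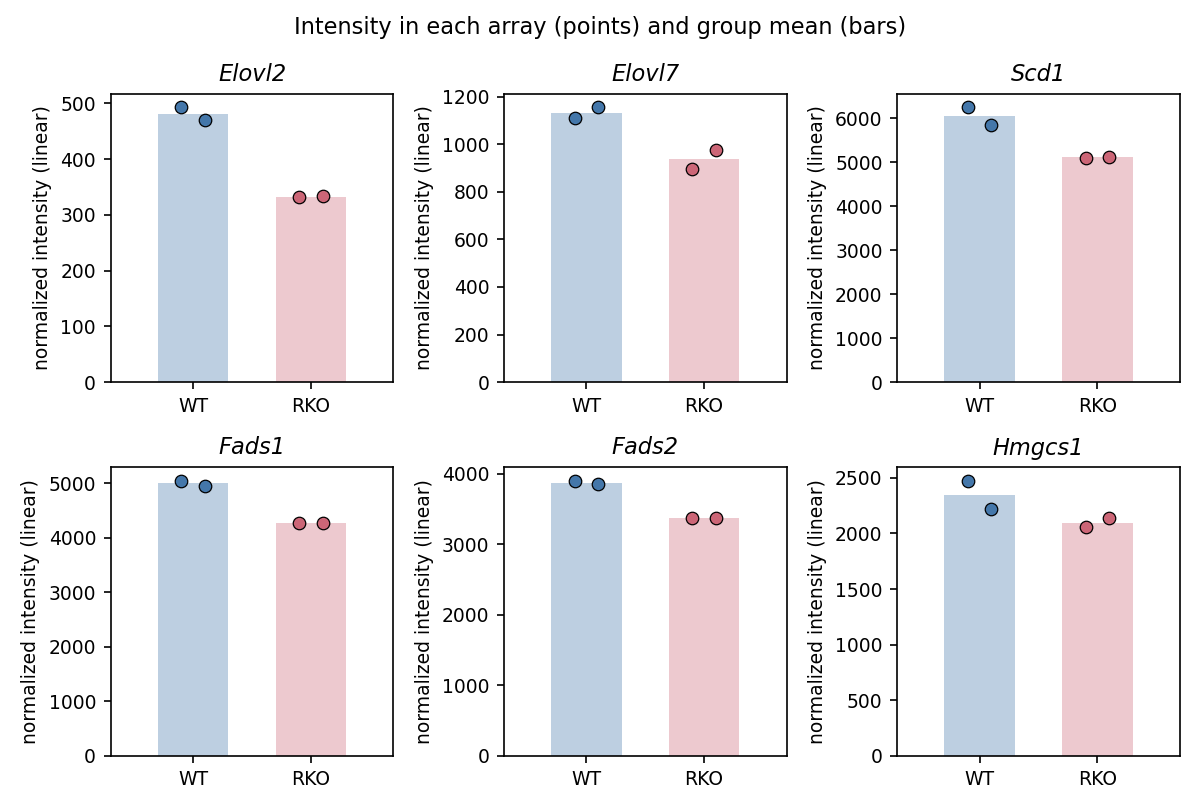
Normalized intensity (linear axis from 0) of Elovl2, Elovl7, Scd1, Fads1, Fads2 and Hmgcs1 in each of the 2 WT and 2 RKO arrays (points) with the group mean (bars). The RKO points lie below the WT points in all 6 panels, by 1.45-fold in Elovl2 and by 1.12-fold in Hmgcs1.

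No enzyme of sterol synthesis passed. In limma 0 of 16 were called. An unadjusted p under 0.05 was found for 3 of 16, all lower, beside 6.90% lower among all tested genes. The median difference was -0.04, with a range of -0.17 to 0.08, and the 95% intervals together ran from -0.31 to 0.22. The median was -0.08 without RKO replicate 2 and -0.02 without RKO replicate 1. Of the 16, 12 lay below 0 and 4 above, beside 56.8% below 0 among all tested genes. When 1 array was left out, 10 to 13 of the 16 lay below 0. Both RKO arrays lay below both WT arrays in 7, above them in 1, and the groups overlapped in 8, beside 24.6% below and 17.2% above among all tested genes.

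The early, mevalonate part of the pathway went both ways. Hmgcs1, which makes HMG-CoA and whose promoter is printed above, had intensities of 2475 and 2222 in WT against 2061 and 2135 in RKO (-0.16, SE 0.0650, adjusted p = 0.321). Its WT arrays differed from each other by 0.16, as much as the groups did. Mevalonate kinase Mvk (0.03), phosphomevalonate kinase Pmvk (0.08) and the decarboxylase Mvd (-0.0043) followed. Pmvk, with 347 and 345 in WT against 364 and 367 in RKO, was the 1 sterol enzyme whose RKO arrays both lay above the WT arrays. The isomerase Idi1 had 1243 and 1192 in WT against 1133 and 1094 in RKO (-0.13, adjusted p = 0.38), and its other probe set gave -0.08. Farnesyl diphosphate synthase Fdps, at the branch to prenylation, stood at 0.08 with overlapping groups.

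From squalene to cholesterol most differences were below 0. Squalene synthase Fdft1 had 3322 and 3437 in WT against 3262 and 3331 in RKO (-0.04), and -0.12 by its other probe set. Squalene epoxidase Sqle, a rate-controlling step, had 1216 and 1239 in WT against 1093 and 1163 in RKO (-0.12, adjusted p = 0.418). The cyclase Lss stood at 0.0086 with overlapping groups. Lanosterol demethylase Cyp51 (-0.11), the ketosteroid reductase Hsd17b7 (-0.09) and the isomerase Ebp (-0.12) were lower in both RKO arrays without passing, while the dehydrogenase Nsdhl (-0.02), the desaturase Sc5d (-0.05) and the reductase Dhcr7 (-0.04) overlapped. Tm7sf2, a sterol reductase, showed the largest difference of the 16, from 538 and 519 in WT to 452 and 487 in RKO (-0.17, SE 0.0605, adjusted p = 0.245).

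**Figure D3:**
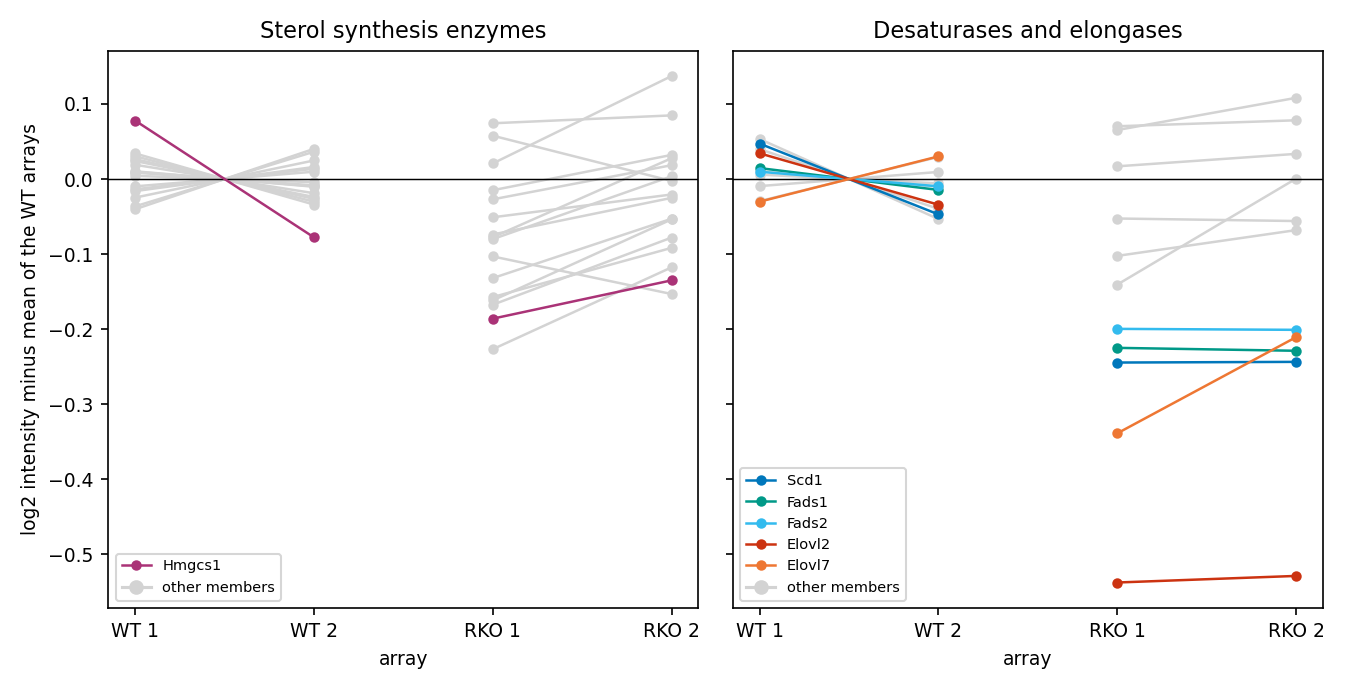
Log2 intensity of each sterol synthesis enzyme (left) and each desaturase and elongase (right) in the 4 arrays, minus the mean of the 2 WT arrays, which makes the WT points symmetric about 0. Sterol enzymes spread around a median difference of -0.04, while Elovl2 lies near -0.53 in both RKO arrays and Scd1, Fads1 and Fads2 between -0.20 and -0.24.

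Sterol sensing genes did not pass either. All 6 lay below 0, beside 56.8% of all tested genes, with a median of -0.05. In limma 0 of the 6 were called or had an unadjusted p under 0.05. Srebf2 had intensities of 1690.4 and 1720.5 in WT against 1551 and 1697 in RKO (-0.07, SE 0.0615, adjusted p = 0.722), and Srebf1 had 746 and 801 in WT against 731 and 787 in RKO (-0.03, SE 0.0630, adjusted p = 0.925). Insig1, an SREBP target that holds the SREBP complex in the endoplasmic reticulum, had 2152 and 2052 in WT against 1915 and 2106 in RKO (-0.07, adjusted p = 0.773). In these 3 genes RKO replicate 1 gave the lowest of the 4 values, and without it Srebf2 stood at -0.0075, Srebf1 at 0.03 and Insig1 at 0.0033. Without RKO replicate 2 Srebf2 stood at -0.14. Insig2 (-0.02), the sterol sensor Scap (-0.03) and the cholesterol carrier Stard4 (-0.06) completed the group, and in Stard4 alone the arrays did not overlap. Liver work ties REV-ERBα to Insig2 and thereby to SREBP, and here the 95% interval of Insig2 ran from -0.15 to 0.11.

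The enzymes that build palmitate did not pass, and those other than Fasn were close to 0. Fasn, fatty acid synthase, had 2265 and 2348 in WT against 2083 and 2231 in RKO (-0.10, SE 0.0596, adjusted p = 0.560), with no overlap. Without RKO replicate 1 the difference of Fasn was -0.05, and without RKO replicate 2 it was -0.15. ATP citrate lyase Acly (-0.02) and the acetyl-CoA carboxylases Acaca (0.0043) and Acacb (-0.0072) overlapped between the groups. Of the 4 genes 0 were called in limma and 0 had an unadjusted p under 0.05. Of the acyl-CoA synthetases, Acsl4 (-0.08, adjusted p = 0.636) and Acsl5 (-0.09, adjusted p = 0.558) were measured. Both were lower in each RKO array, at 1389 and 1407 against 1483 and 1465 for Acsl4.

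Glycerolipid assembly did not pass, with 0 of 5 called in limma and 0 at an unadjusted p under 0.05. Gpam, which attaches the first acyl chain to glycerol phosphate, had 1059 and 1023 in WT against 1066 and 1054 in RKO (0.03, adjusted p = 0.915). Lpin1, a phosphatidate phosphatase, stood at 0.10 with both RKO arrays above both WT arrays (adjusted p = 0.528), the highest difference of the 52. Lpin2 (0.01), Dgat1 (-0.03) and Dgat2 (-0.02), the last 2 of which form triglyceride, lay near 0. The lipase Lpl had 101 and 89.0 in WT against 101 and 107 in RKO, and the fatty acid receptor Cd36 had 55.6 and 60.2 in WT against 51.7 and 60.4 in RKO. Both are below the filter's intensity of 167 and were not tested.

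Regulators of fatty acid metabolism and genes of fatty acid import for oxidation did not pass. Ppara (-0.06), Ppard (-0.04) and Pparg (-0.0027), the nuclear receptors that respond to fatty acids, and their coactivators Ppargc1a (0.0010) and Ppargc1b (0.04) gave 0 calls in limma and 0 at an unadjusted p under 0.05, with 95% intervals that together ran from -0.18 to 0.17. Ppargc1a had 1981 and 1978 in WT against 2012 and 1950.2 in RKO, and 0.06 by its other probe set. Cpt1a, the carnitine acyltransferase that admits long chains to mitochondria, had 877 and 853 in WT against 804 and 822 in RKO (-0.09, SE 0.0556, adjusted p = 0.572). Its neuronal relative Cpt1c (-0.04) and the peroxisomal importer Abcd2 (-0.01) overlapped between the groups. The 34 fatty acid and regulator genes, 30 of them tested, had a median of -0.04, which was -0.02 without RKO replicate 1 or WT replicate 1.

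Further genes of these pathways, from lists drawn up beside the members, did not pass. Of 10 other sterol pathway genes 6 were tested, 0 were called in limma and 0 had an unadjusted p under 0.05. All 6 lay below 0 (median -0.06), beside 56.8% of all tested genes. The 6 ran from Msmo1, a sterol methyl oxidase (-0.11, adjusted p = 0.50), to the SREBP protease Mbtps1 (-0.0036). Of 25 other fatty acid pathway genes 23 were tested, with 0 called, 0 at an unadjusted p under 0.05, 14 below 0 and a median of -0.03. Their extremes were Thrsp, a lipogenic thyroid hormone target (-0.14, adjusted p = 0.414), and Hacd2, a dehydratase of the elongation cycle (0.05).

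Markers of the cells that make these lipids mostly did not pass. Both RKO arrays lay below both WT arrays in all 11 tested oligodendrocyte markers (24.6% of all tested genes), with a median of -0.11. Of the 11, 1 was called lower in limma, Opalin (-0.30, adjusted p = 0.0446), beside 0.964% of all tested genes. The summed intensity of the 11 was 40160.4 to 41408 in WT against 37704 to 38028 in RKO. Precursor markers had a median of -0.11 with 0 of 5 called in limma (2 at an unadjusted p under 0.05) and sums of 2777 to 2866 in WT against 2533 to 2765 in RKO. The 9 astrocyte markers went both ways (median 0.05, sums of 27042 to 27340.0 in WT against 27517 to 27909 in RKO). In limma 2 were called lower, beside 0.964% of all tested genes, and 0 higher, beside 0.640%. At an unadjusted p under 0.05 in limma 2 were lower and 2 higher (Gja1 and Sox9), beside 6.90% and 5.90% of all tested genes. Of the 9, Gfap fell (-0.51, adjusted p = 0.00136) and Aldh1l1 fell (-0.31, adjusted p = 0.0416). Gja1 (0.22), Sox9 (0.15) and Slc1a2 (0.05) did not pass.

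Of 9 tested leptomeningeal markers 6 were called lower in limma, beside 0.964% of all tested genes. Both RKO arrays lay below both WT arrays in 7 of the 9, beside 24.6% of all tested genes. They lay above them in 2, Col1a1 (0.13) and Col1a2 (0.07), neither of which passed. The 9 had a median of -0.41 and sums of 4860.1 to 4927 in WT against 3752 to 3803 in RKO. Lum lay below the filter and was not tested. Neuronal markers had 0 of 5 called in limma, 0 at an unadjusted p under 0.05 and a median of -0.02. Of the 9 dopamine neuron markers Th (0.72), Slc18a2 (0.42), Ddc (0.34) and Slc6a3 (0.33) rose, with adjusted p of at most 0.0141 in limma. Among all tested genes 0.640% were called higher. In 8 of the 9 both RKO arrays lay above both WT arrays, beside 17.2% of all tested genes, and Aldh1a1 stood at -0.10. The sums of the 9 were 14275 to 14697 in WT against 17569 to 18074 in RKO. Microglial markers gave 0 of 5 called and 0 at that p (median -0.07), and endothelial markers 0 of 6 called and 1 at that p (median -0.06). In bulk tissue, fewer cells of a type and less RNA per cell cannot be told apart. The part of these cell types in the differences of Elovl2, Elovl7, Scd1, Fads1, Fads2 and the sterol enzymes was not tested.

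**Figure D4:**
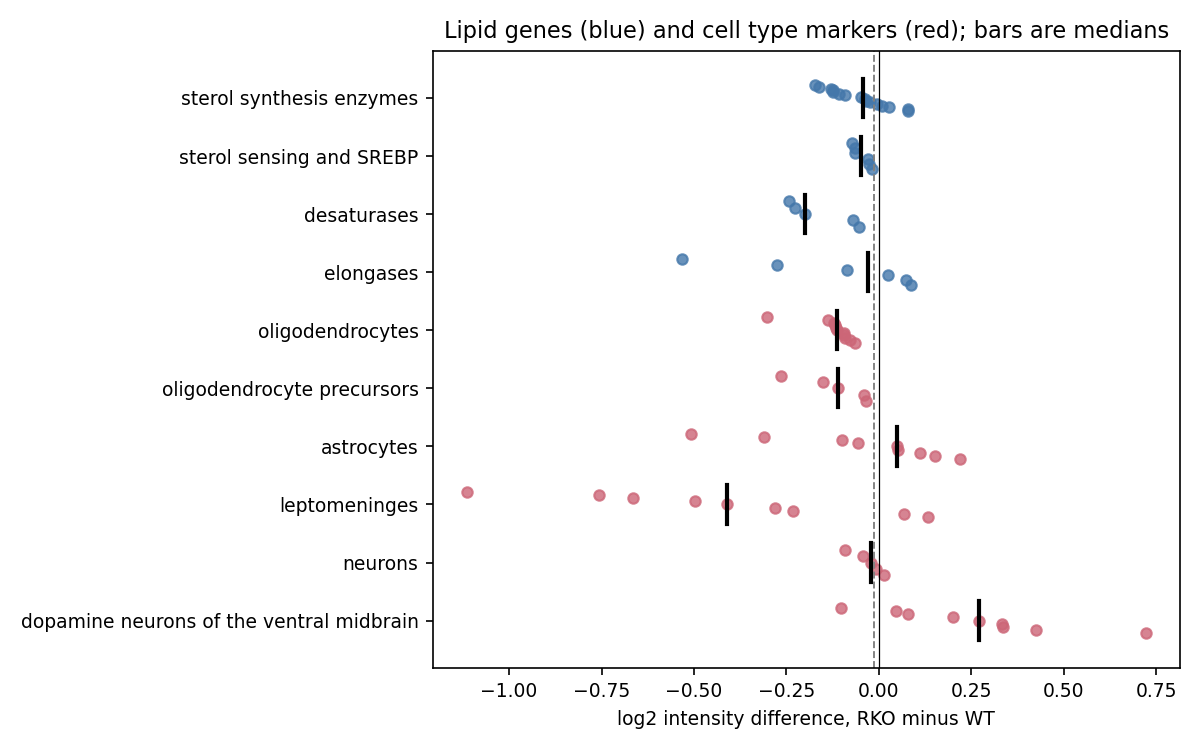
Log2 intensity difference (RKO minus WT) of single genes (points) and list medians (black bars) for 4 groups of lipid genes in blue and 6 lists of cell type markers in red; the dashed line is the median of all tested genes. The medians are -0.04 for sterol synthesis enzymes, -0.20 for desaturases, -0.11 for oligodendrocyte markers, 0.05 for astrocyte markers and 0.27 for dopamine neuron markers.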

How the data were processed

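The authors deposited normalized intensities of 35556 probe sets in 4 arrays; the values show a linear scale. Per the submitters' processing notes, GCOS and RMA were used, with no version or setting stated. RMA as usually run makes the arrays' distributions alike, so a shift common to most genes would be removed. Intensities were put on the log2 scale with no pseudocount. Symbols came from the platform annotation: 21789 probe sets had 1 symbol, 1621 several and 12146 none here. Entrez identifiers of 21698 matched RefSeq genes of GRCm38.p6, and 0 symbols changed. The dimmest genes, under the 40th percentile of probe set means (log2 7.38), were left out. The genotypes were compared with limma 3.58.1 (lmFit, eBayes; R 4.3.3), without covariates, on 2 residual and 8.73 prior degrees of freedom, and genes were called, two-sided, where the Benjamini-Hochberg adjusted p over 13587 genes was under 0.05. The fit was tested on simulated data. The number of arrays limits the precision, and an exact permutation test of 2 against 2 cannot go below p = 0.333. At most 5 intensities were identical between any 2 arrays.

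Members and lists were chosen with earlier results of these data known. Genes picked by rule were those called, and the tested gene of largest difference and the brightest in each of 10 functional groups. Srebf1, Srebf2, Insig1, Fasn, Gpam and Cpt1a were included in any case. Elovl7, Fads1, Fads2, Hmgcs1, Sqle and Idi1 were added after their values were seen. Alternatives were other filters, centring, an intensity trend, a pseudocount, the mean of all probe sets, a replicate block and the omission of each array. A crossed replicate block, with the replicate numbers of RKO swapped, was added after seeing the data.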

Additional observations from a re-analysis of the deposited data

How the results depend on the processing

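Elovl2 was called, and lower, under all 12 alternatives. The number of members called, 1 as reported, was 5 with the filter at the 60th percentile (10.2% of members against 3.13% of all genes), 4 with median centring (7.69% against 3.35%), 6 with an intensity trend in eBayes (11.5% against 3.67%), 2 with a pseudocount of 16 (3.85% against 1.91%) and 2 with the replicate block (3.85% against 1.91%). It was 1 with no filter (1.85% against 0.155%) and without any 1 array (1.92% against 0.537% to 2.16%). Of these, fatty acid and regulator genes made up 5, 4, 5, 2 and 2, and the sterol synthesis enzymes 1 (Hmgcs1) with the trend and 0 otherwise. All were lower in RKO. Of all genes, 218 as reported, 31 were called with no filter (8 higher and 23 lower), 296 of 9453 with the filter at the 60th percentile, 455 with median centring (191 and 264), 499 with the trend (190 and 309) and, leaving out 1 array, 73 (without RKO replicate 1) to 293 (without WT replicate 2), with 99 without RKO replicate 2. The median of the sterol synthesis enzymes ran from -0.0788 (without RKO replicate 2) to -0.0229 (without RKO replicate 1), and that of the fatty acid and regulator genes from -0.0551 to -0.0168 over the same omissions. The cause of these shifts was not tested.

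Replicate numbers are shared between the groups, and the differences of replicate 1 minus 2 in WT and in RKO had r = -0.11 over 13587 genes, so the numbers were not taken as pairs. With the replicate block 259 genes were called, and a crossed replicate block, chosen after seeing the data, called 696 of all genes (334 higher and 362 lower) and 5 of the members (9.62% against 5.12%), all 5 fatty acid and regulator genes. Among the 18 genes picked by rule, 8 of 215 values changed sign, all in genes not called as reported. The genes added after their values were seen were not among the 18. When 1 array was left out, Srebf1 ran from -0.0807 (without RKO replicate 2) to 0.0254 (without RKO replicate 1), and was also above 0 without WT replicate 2 (0.0231). Insig1 ran from -0.134 to 0.0033 and Ppargc1a from -0.0215 (without RKO replicate 1) to 0.0236, with -0.00021 without WT replicate 2 and -0.0074 with median centring. Cpt1c ran from -0.114 to 0.0348 (without WT replicate 2), with 0.0235 without RKO replicate 1. Scd1 was called with the 60th percentile filter, median centring, the trend and the crossed block. With median centring and with the crossed block, limma gave every gene the same SE (0.0732 and 0.0656). The smallest difference called among all genes as reported was 0.26 on the log2 scale, while other settings called members at smaller ones, down to Hmgcs1 at -0.16 with the trend.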
